A study of Mus musculus with 12 samples.

Results

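The genes described here are 10 markers of endothelial cells, the cells that line blood vessels: Pecam1, Cdh5, Kdr, Flt1, Tek, Tie1, Emcn, Eng, Esam and Vwf. They were taken by gene symbol from the platform annotation of the array, which gave 16 of its 45281 probes. RNA came from whole testes of mice aged 10 days and was read on 12 Illumina BeadChip arrays, which carry oligonucleotide probes on beads. In the KO group (SC-RbKO, 4 arrays, KO 1 to KO 4) both copies of the retinoblastoma gene Rb1 were deleted in Sertoli cells, the somatic cells that nurse germ cells. In the HET group (SC-Rb+/-, 3 arrays, HET 5 to HET 7) the deletion was on 1 copy, and the third group was wild type (WT, 5 arrays, WT 8 to WT 12). The deletion used floxed Rb1 and Cre recombinase driven by the anti-Müllerian hormone promoter, so the endothelial cells were not its target. The labels do not say whether WT mice carried Cre or a floxed allele, nor whether each RNA came from its own mouse, so p-values measure only the spread between these samples, which may be technical.

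Endothelial cells of the testis supply the Leydig cells and the seminiferous tubules from the interstitium. They are held together by vascular endothelial cadherin (Cdh5), platelet endothelial cell adhesion molecule (Pecam1) and the junction protein Esam. Their growth is steered by VEGF receptors (Kdr and Flt1), by the angiopoietin receptor Tek with its relative Tie1, and by endoglin (Eng), a co-receptor for the TGF-beta and BMP family. Emcn, endomucin, is a surface sialomucin, and Vwf, von Willebrand factor, is a clotting protein that endothelial cells and megakaryocytes make. Pecam1 is also carried by platelets and leukocytes, and Eng by some macrophages and stromal cells.

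Of the 16 probes, 11 were detected (detection p under 0.05 on at least 3 arrays) and 5 were above background on 0 of 12 arrays. Both Kdr probes were among those 5, with detection p-values from 0.231 to 0.934, so Kdr was not well above background in any group and no difference is given for it. The other 9 genes each had a probe detected on all 12 arrays, and these 9 are the measured endothelial genes below. Pecam1 and Cdh5 had a second detected probe, and each gene was represented by its brighter one. Levels are normalized log2 intensities from a fit over 11076 genes. The offset added before taking logs shrinks differences of dim probes, of which Tie1 was the dimmest used here, with detection p-values up to 0.0374. Levels of different probes are not set against each other, since probes differ in brightness. In whole testis, fewer endothelial cells and less RNA per endothelial cell cannot be told apart.

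Detection and brightness were alike across arrays: between 39.3 and 43.7 percent of probes were detected, with median raw intensities from 52.2 to 60.2. Arrays HET 7 and WT 12 were high and HET 6 was low in meiotic transcripts, with a mean over 6 measured meiotic genes of 1.42, 1.16 and -1.45 on the log2 scale relative to the WT mean. The remaining arrays lay between -0.58 and -0.06. In the unnormalized table each column name holds a running number, and the 6 lower ones belong to KO 1, KO 2, HET 5, HET 6, WT 8 and WT 9. These arrays are called the low-number set and the other 6 the high-number set. No label or header used here says what the numbers stand for. Defining markers of the tissue were present, with 7 of 8 Sertoli cell markers and 6 of 7 germ cell markers measured.

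Promoters are shown for the receptors and co-receptors that varied most closely with the other endothelial genes across arrays, Eng, Flt1 and Tek, and for Emcn, which varied least closely among those with a promoter sequence, in an order that held before number set was removed. With it removed, Emcn varied most closely of the 9 genes and Tie1 least. RefSeq windows of 300 bases on GRCm38.p6, from 250 bases before to 50 after the gene's start, were found for 6 of 10 genes. They run 5′ to 3′ on the gene's strand, with capitals marking matches to cores of ETS, GATA and SOX factors on either strand. The windows lie at chr2:32646345-32646644 (+ strand) for Eng, chr5:147725962-147726261 (- strand) for Flt1, chr4:94739039-94739338 (+ strand) for Tek and chr3:137340828-137341127 (+ strand) for Emcn.
Eng: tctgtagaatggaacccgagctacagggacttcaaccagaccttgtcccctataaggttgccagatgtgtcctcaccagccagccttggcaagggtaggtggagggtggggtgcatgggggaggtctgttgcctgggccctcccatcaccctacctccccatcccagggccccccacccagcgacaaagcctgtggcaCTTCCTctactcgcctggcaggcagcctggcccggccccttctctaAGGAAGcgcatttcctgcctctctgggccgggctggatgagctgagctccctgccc
Flt1: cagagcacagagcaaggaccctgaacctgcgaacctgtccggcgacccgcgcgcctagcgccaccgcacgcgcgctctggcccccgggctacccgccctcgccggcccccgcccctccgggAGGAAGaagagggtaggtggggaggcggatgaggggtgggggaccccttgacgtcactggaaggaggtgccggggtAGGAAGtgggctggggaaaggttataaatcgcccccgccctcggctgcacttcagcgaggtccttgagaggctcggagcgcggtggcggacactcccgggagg
Tek: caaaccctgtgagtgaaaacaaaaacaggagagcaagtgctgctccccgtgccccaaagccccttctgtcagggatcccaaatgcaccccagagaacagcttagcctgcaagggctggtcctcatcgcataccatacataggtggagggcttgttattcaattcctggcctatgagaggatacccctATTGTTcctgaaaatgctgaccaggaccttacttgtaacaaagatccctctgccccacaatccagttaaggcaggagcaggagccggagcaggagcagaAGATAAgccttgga
Emcn: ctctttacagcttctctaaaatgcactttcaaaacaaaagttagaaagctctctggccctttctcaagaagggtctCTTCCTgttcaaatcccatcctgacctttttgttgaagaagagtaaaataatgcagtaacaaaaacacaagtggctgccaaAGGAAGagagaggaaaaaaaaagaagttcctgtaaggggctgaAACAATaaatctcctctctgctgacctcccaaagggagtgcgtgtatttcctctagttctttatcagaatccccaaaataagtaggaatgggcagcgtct

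Both strands were searched. Eng, Flt1 and Emcn each held AGGAAG, an ETS core, at 2 positions, Eng at -52 and -6, Flt1 at -129 and -53 and Emcn at -174 and -93 relative to the start. Tek held neither ETS core in this window and had AGATAA, which GATA factors bind, at 37 and AACAAT, a SOX core read on the opposite strand, at -63. Emcn also held AACAAT at -50. AGGAAG was present in 4 of the 6 windows and in 35.4 percent of 32851 promoter windows of this length, and CGGAAG, another ETS core that cannot match at the same position, in 1 of 6 (Tie1) and 16.9 percent. AGATAA was in 1 of 6 against 11.2 percent, and AACAAT in 2 of 6 against 10.7 percent. These are matches of letters and not measured binding.

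Whole testes of KO mice showed no detectable change of any measured endothelial gene. Of the 9 genes, 0 passed the threshold in KO against WT (limma, Benjamini-Hochberg adjusted p under 0.05 over 11076 genes), where percent called over all genes was 0. At an unadjusted p under 0.05 there were 0 of 9, against 2.56 percent of all genes, and KO and WT arrays failed to overlap for 0 of 9, against 1.94 percent. Differences of 2 genes were above 0, against 50.5 percent of all genes, and those of 7 below, against 49.5 percent, with a median of -0.024, against 0.0016 over all genes. For the probe standing for each gene, unadjusted 95 percent confidence intervals ran at most from 1.29-fold lower to 1.41-fold higher in KO. The interval of the second Pecam1 probe reached further down, from -0.58 to 0.25 on the log2 scale.

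**Figure D1:**
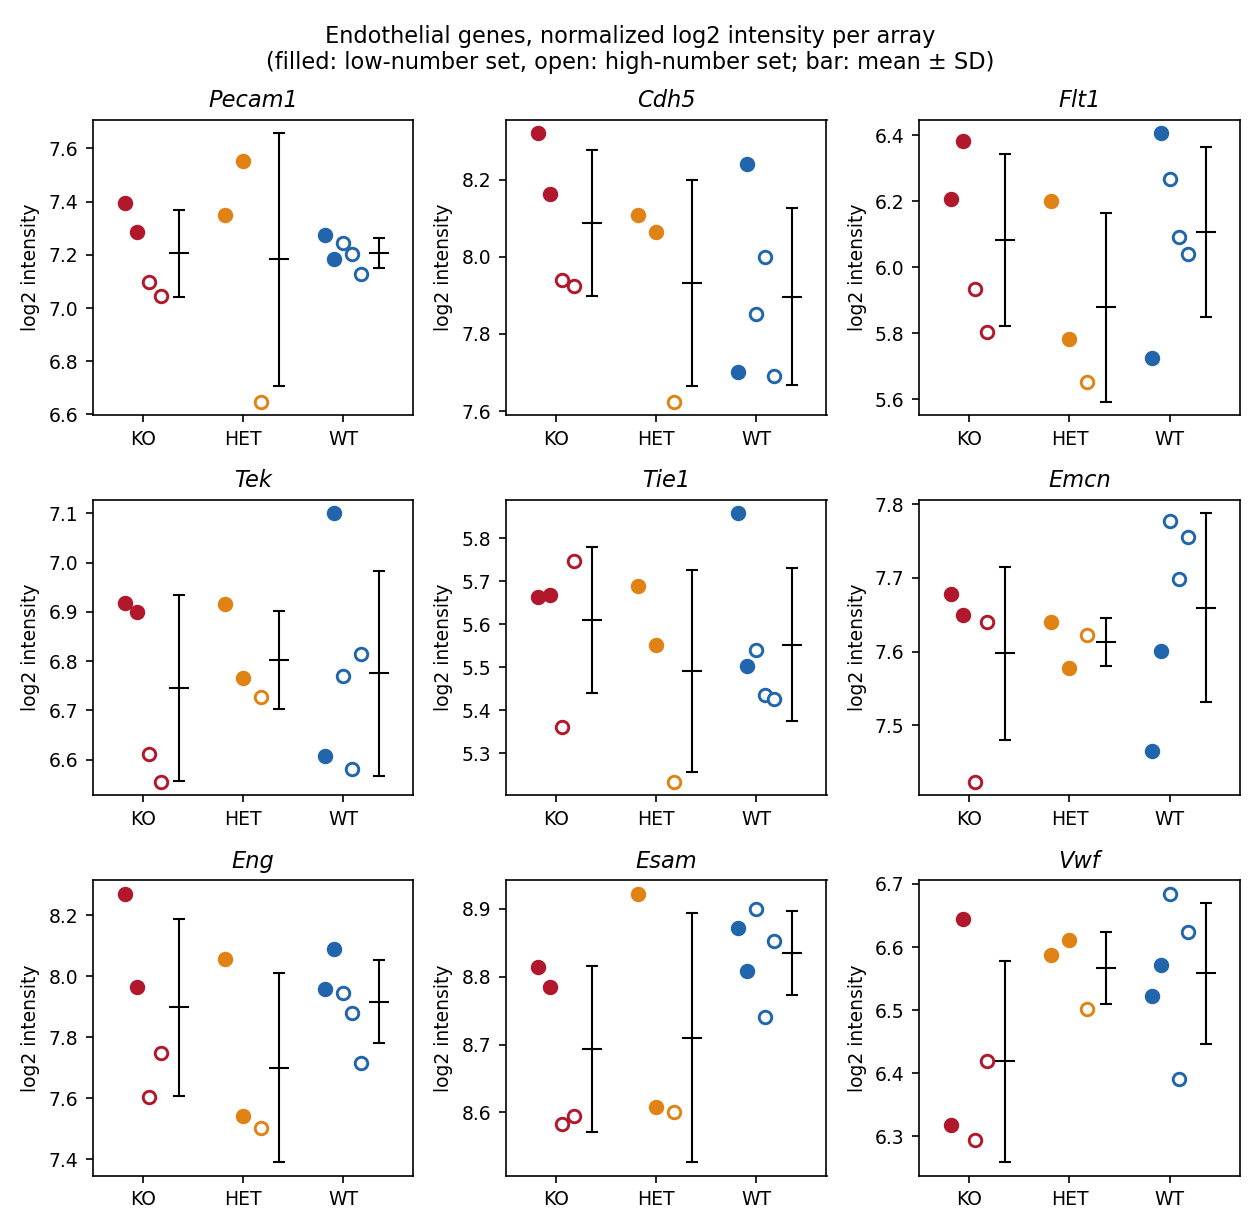
Normalized log2 intensity of the 9 measured endothelial genes on each array, by genotype (KO, HET, WT), with the mean ± SD at the right of each group. Filled points are arrays of the low-number set and open points those of the high-number set. KO and WT points overlap for all 9 genes, and in KO the filled points lie above the open ones for 7 of 9.

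Among the junction genes, Cdh5, the cadherin of endothelial adherens junctions, read 8.32, 8.16, 7.94 and 7.92 in KO 1 to KO 4, 8.11, 8.06 and 7.62 in HET 5 to HET 7, and 7.70, 8.24, 7.85, 8.00 and 7.69 in WT 8 to WT 12. KO 1 alone exceeded every WT array and the groups overlapped. The KO minus WT difference was 0.19 (SE 0.14, 95% CI -0.12 to 0.50, limma adjusted p = 1), and 0.13 for its second probe, which tracked the first across arrays (Pearson r = 0.914, n = 12). Pecam1, an adhesion molecule of endothelial contacts, read 7.40, 7.29, 7.10 and 7.04 in KO 1 to KO 4, 7.35, 7.55 and 6.65 in HET 5 to HET 7, and 7.27, 7.19, 7.24, 7.20 and 7.13 in WT 8 to WT 12. KO 1 and KO 2 lay above all WT arrays and KO 3 and KO 4 below all of them, so the mean difference was -0.0019 (SE 0.15, CI -0.33 to 0.33). The second Pecam1 probe differed by -0.16 (SE 0.19) and followed the first less closely (Pearson r = 0.361, n = 12), with KO 4 not above background on it. Esam, an immunoglobulin-type adhesion molecule of tight junctions, read 8.81, 8.78, 8.58 and 8.59 in KO 1 to KO 4, 8.92, 8.61 and 8.60 in HET 5 to HET 7, and 8.87, 8.81, 8.90, 8.74 and 8.85 in WT 8 to WT 12. KO 3 and KO 4 were below every WT array, KO 1 and KO 2 within the WT range. Its difference of -0.14 (SE 0.092, limma unadjusted p = 0.148, adjusted p = 1) had the smallest p of the 9.

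Of the growth factor receptors, Flt1, which binds VEGF and placental growth factor and in a soluble form traps them, read 6.21, 6.38, 5.93 and 5.80 in KO 1 to KO 4, 6.20, 5.78 and 5.65 in HET 5 to HET 7, and 5.73, 6.41, 6.27, 6.09 and 6.04 in WT 8 to WT 12. All 4 KO values lay within the WT range, and the difference was -0.024 (SE 0.16, CI -0.37 to 0.32). Tek, the receptor for angiopoietins, read 6.92, 6.90, 6.61 and 6.55 in KO 1 to KO 4, 6.92, 6.77 and 6.73 in HET 5 to HET 7, and 6.61, 7.10, 6.77, 6.58 and 6.82 in WT 8 to WT 12. Only KO 4 left the WT range, on its lower side, and the difference was -0.030 (SE 0.12). Tie1, the receptor that pairs with Tek, read 5.66, 5.67, 5.36 and 5.75 in KO 1 to KO 4, 5.69, 5.55 and 5.23 in HET 5 to HET 7, and 5.86, 5.50, 5.54, 5.43 and 5.43 in WT 8 to WT 12. WT 8 held the highest reading and HET 7 the lowest, and KO minus WT was 0.057 (SE 0.12). Eng, the co-receptor endoglin, read 8.27, 7.96, 7.60 and 7.75 in KO 1 to KO 4, 8.06, 7.54 and 7.50 in HET 5 to HET 7, and 7.96, 8.09, 7.94, 7.88 and 7.72 in WT 8 to WT 12. KO 1 was above and KO 3 below every WT array, and the difference was -0.020 (SE 0.15, CI -0.34 to 0.30).

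The surface and secreted products varied little within groups. Emcn, an endothelial sialomucin, read 7.68, 7.65, 7.42 and 7.64 in KO 1 to KO 4, 7.64, 7.58 and 7.62 in HET 5 to HET 7, and 7.46, 7.60, 7.78, 7.70 and 7.76 in WT 8 to WT 12. KO 3 lay just below WT 8 and the groups otherwise overlapped, with a difference of -0.062 (SE 0.088, CI -0.25 to 0.13). Vwf, which tethers platelets and carries clotting factor VIII, read 6.32, 6.64, 6.29 and 6.42 in KO 1 to KO 4, 6.59, 6.61 and 6.50 in HET 5 to HET 7, and 6.52, 6.57, 6.68, 6.39 and 6.62 in WT 8 to WT 12. KO 1 and KO 3 were below every WT array, and the difference was -0.14 (SE 0.092, limma unadjusted p = 0.155, adjusted p = 1). Within groups the SD was 0.11 for Emcn, 0.12 for Esam and 0.12 for Vwf, among the lowest 18 percent of all genes. It was 0.27 for Flt1, 0.25 for Pecam1, 0.24 for Eng and 0.23 for Cdh5, against a median of 0.18 over all genes.

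**Figure D2:**
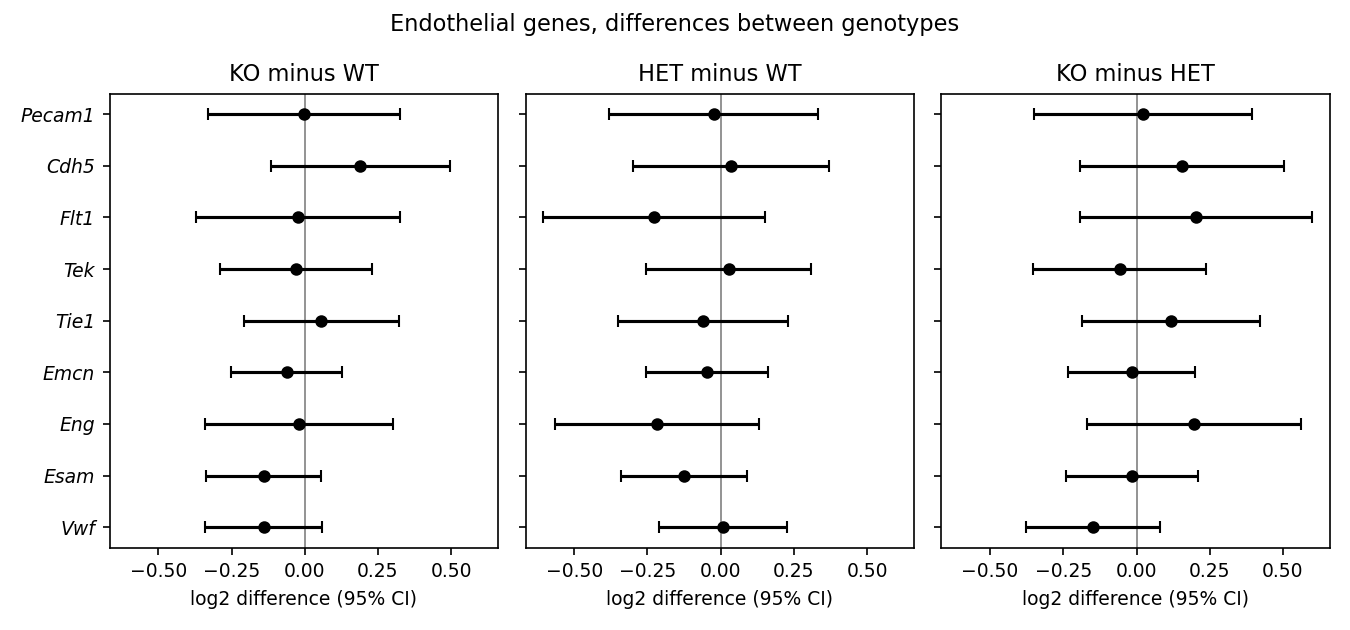
Differences between genotypes for each measured endothelial gene on the log2 scale (points) with unadjusted 95% confidence intervals (bars), for KO minus WT, HET minus WT and KO minus HET. Every interval includes 0. The intervals reach 0.50 for Cdh5 in KO minus WT and -0.61 for Flt1 in HET minus WT.

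Loss of 1 Rb1 copy gave no passing endothelial gene either. In HET against WT 0 of 9 passed (percent called over all genes 0), 0 of 9 had an unadjusted p under 0.05, against 9.77 percent of all genes, and 0 of 9 did not overlap, against 2.68 percent. Adjusted p-values in limma ran from 0.598 to 0.982, with 3 differences above 0, against 47.7 percent of all genes, 6 below, against 52.3 percent, and a median of -0.046, against -0.010. Flt1 differed by -0.23 (SE 0.18, CI -0.61 to 0.15) and Eng by -0.22 (SE 0.16, CI -0.57 to 0.13), Eng being below every WT array in HET 6 and HET 7 but not in HET 5. The WT arrays are the same as in the comparison with KO. Without HET 5, 173 genes of all those tested passed in HET against WT and 62 in KO against HET, with 0 endothelial genes among them.

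The 3 HET arrays lay apart from each other. HET 7 held the lowest of all 12 readings for 5 of 9 genes and was below the WT mean for 9 of 9, while HET 5 was above it for 8 of 9. For Pecam1, HET 5 and HET 6 were above all WT arrays and HET 7 below all of them. Without HET 7 its difference from WT was 0.24, against -0.024 with it, and the median over the genes was 0.041, against -0.046. HET 7 was also the highest array in the meiotic list, of which 6 of 10 genes were measured, and Sycp1, Sycp3, Hormad1 and Dmc1 were not. The meiotic mean ranged from -0.46 to -0.18 in KO, from -1.45 to 1.42 in HET and from -0.58 to 1.16 in WT. With that mean as a covariate 0 of 9 genes passed in any comparison and the HET minus WT median was -0.050.

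The direct comparison of both deleted groups gave the same count. In KO against HET 0 of 9 genes passed (percent called over all genes 0), 0 of 9 had an unadjusted p under 0.05, against 7 percent, and 0 of 9 did not overlap, against 5.24 percent. Of the differences 5 were above 0, against 53 percent, and 4 below, against 47 percent. They ran from -0.15 for Vwf to 0.20 for Flt1, with a median of 0.022, against 0.013 over all genes. Intervals of the probes standing for the genes reached from 1.30-fold lower to 1.52-fold higher in KO. That of the second Pecam1 probe ran from -0.49 to 0.45 on the log2 scale. A moderated F-test over KO and HET against WT gave 0 of 9 past the threshold, against 0 percent of all genes, and 0 of 9 at an unadjusted p under 0.05, against 5.44 percent. Its smallest adjusted p was 0.785, for Esam and Vwf.

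Inside the KO group the endothelial genes split by number set. KO 1 and KO 2 lay above KO 3 and KO 4 for 7 of 9 genes, all but Tie1 and Vwf, against 21 percent of all genes. Averaged over the 9 genes and set against the WT mean, KO 1 stood at 0.12 and KO 2 at 0.10, against -0.18 for KO 3 and -0.11 for KO 4. Both HET arrays of the low-number set, HET 5 and HET 6, were above HET 7 for 8 of 9 genes, against 36.4 percent. In WT the same held for 1 of 9, Eng, against 9.71 percent. These counts were looked at after seeing earlier results, and genes that vary together are not independent.

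**Figure D3:**
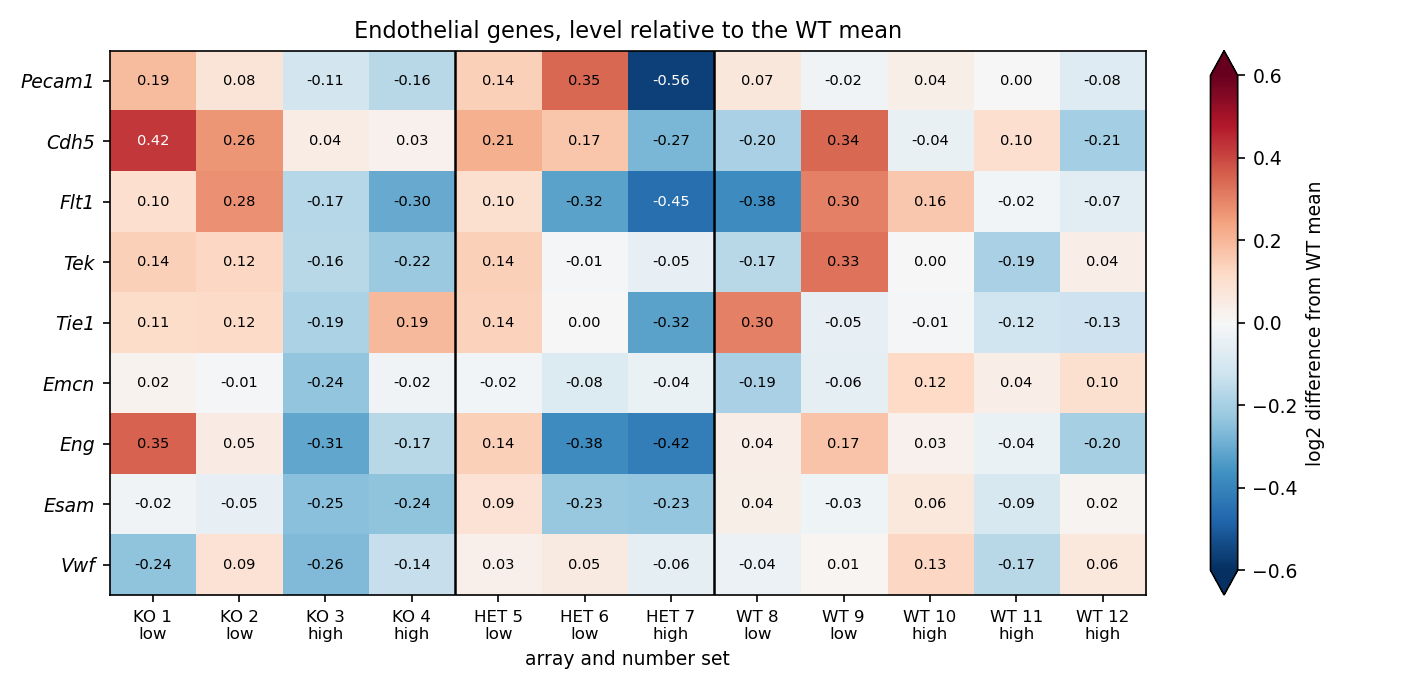
Level of each measured endothelial gene on each array relative to its WT mean (log2, colour and printed value), with arrays grouped as KO, HET and WT and marked by number set. KO 1, KO 2 and HET 5 are mostly above 0, and KO 3, KO 4 and HET 7 mostly below.

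With genotype in the model, 8 of 9 endothelial genes were higher in the low-number set, against 53 percent of all genes, with a median of 0.20, against 0.0088. The difference between the low and the high set was 0.30 for Eng (SE 0.10, limma unadjusted p = 0.015, adjusted p = 0.62), 0.30 for Pecam1 (SE 0.11), 0.27 for Cdh5 (SE 0.10) and 0.22 for Tie1 (SE 0.093). These 4 had an unadjusted p under 0.05, against 7.15 percent of all genes, and 0 of 9 passed after adjustment, against 0.00903 percent. Emcn went the other way, with -0.045 (SE 0.079). In HET the high set was HET 7 alone. Pecam1 averaged 7.45 (low) and 6.65 (high) in HET, 7.34 and 7.07 in KO, and 7.23 and 7.19 in WT. Eng averaged 7.80 and 7.50 in HET, 8.12 and 7.68 in KO, and 8.02 and 7.85 in WT.

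Differences between KO and WT were therefore also taken within each set. Among low-number arrays (2 KO and 2 WT) 6 of 9 were above 0, against 53.4 percent of all genes, with a median of 0.094, against 0.011. Among high-number arrays (2 KO and 3 WT) 2 of 9 were above 0, against 48.9 percent, with a median of -0.17, against -0.0038. Flt1 differed by 0.23 in the low set and -0.26 in the high set, Emcn by 0.13 and -0.21, Eng by 0.094 and -0.17, and Cdh5 by 0.27 and 0.085. A test of the change between sets had an unadjusted p under 0.05 for 0 of 9 genes, against 2.33 percent, the smallest being 0.063 for Emcn, and 0 of 9 passed after adjustment (limma adjusted p = 1), against 0 percent. With the sets as a block the KO minus WT median was -0.049 and 0 of 9 genes passed.

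The endothelial genes varied together across arrays within genotypes. After each gene's group means were removed, 35 of 36 pairs had a positive Pearson r over the 12 arrays, against 50.4 percent of all pairs. Their median was 0.413, and 18.4 percent of all pairs of the 11076 genes were at or above that value (median 0.0045 over all pairs). The closest pairs were Flt1 with Tek (r = 0.822) and Eng with Esam (r = 0.820). All arrays enter every pair, so 1 array can act on all of them. With number set removed as well, the median was 0.327, 30 of 36 pairs were positive, and 25.8 percent of all pairs were at or above that median.

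Against the mean of the other 8 genes, Eng had r = 0.796 and rho = 0.783, Flt1 0.759 and 0.783, Esam 0.753 and 0.797, Cdh5 0.747 and 0.706, and Tek 0.697 and 0.699. Those 5 had the highest r of the 9 genes. Pecam1 had 0.578 and 0.741, Tie1 0.386 and 0.392, Vwf 0.371 and 0.336 and Emcn 0.282 and 0.196. The pair of arrays farthest from the median of the other 8 genes' mean was left out, chosen for each gene separately. On the remaining arrays r was 0.725 for Eng, 0.781 for Flt1, 0.759 for Tek and 0.062 for Tie1. The relation of Tie1 thus rested on the arrays left out for it. With number set removed, r was 0.768 for Emcn, 0.198 for Pecam1 and -0.11 for Tie1. These correlations describe the arrays and carry no p-value.

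Genes outside the list with the most similar pattern were taken by Pearson r with the mean deviation of the 9 genes, over 12 arrays and 10718 candidates. They were Ms4a6d, a membrane protein gene of the MS4A family (r = 0.927, rho = 0.923), Plk3, a polo-like kinase (0.923 and 0.909), Hoxd9, a homeobox factor (0.921 and 0.874), Fam240b (0.916 and 0.909), Mgmt, which repairs alkylated guanine (0.904 and 0.867), and Pknox2, a TALE homeobox factor (0.900 and 0.888). Without HET 5 and HET 7, the arrays farthest from the median of that mean deviation, their r lay between 0.834 and 0.915. With number set removed it lay between 0.775 and 0.898. They are the extreme of many genes ranked on these arrays. Fam240b was dim, reading 5.26 in KO 1 and 4.94 in HET 7. In KO 3, KO 4, HET 7 and WT 9 to WT 12 it lay below the lowest level of any detected probe on that array. Ms4a6d did so in KO 3 and HET 7. Mgmt read 7.67 and 7.58 in KO 1 and KO 2, and 6.12 and 6.25 in KO 3 and KO 4. It read 7.92, 6.95 and 5.99 in HET 5 to HET 7, and 7.63, 7.50, 7.53, 7.43 and 6.70 in WT 8 to WT 12.

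Ligands and receptors of the same pathways also gave 0 passing genes in each of the 3 comparisons. Of 11 VEGF and angiopoietin genes 8 were measured, and in KO against WT 6 were above 0 and 2 below (median 0.042). Vegfd, a VEGF family ligand, read 8.22 ± 0.36 in KO and 7.88 ± 0.23 in WT (SD, n = 4 and 5), with a difference of 0.34 (SE 0.16, limma adjusted p = 1). Angpt4, an angiopoietin, differed by 0.18 (SE 0.14) and was detected on 10 of 12 arrays. Pgf, Flt4 and Angpt1 were not measured. Endoglin's partners and response genes gave 7 of 11 measured, with 3 above 0 and 4 below (median -0.013). Smad5, which carries BMP signals to the nucleus, read 8.72 ± 0.03 in KO and 8.89 ± 0.04 in WT without overlap (-0.17, SE 0.068, limma unadjusted p = 0.026, adjusted p = 1), but another of its probes differed by 0.042. Tgfb1, the ligand TGF-beta 1, differed by 0.19 (SE 0.089).

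A wider set of endothelial surface and secreted genes, of which 13 of 18 were measured, had 3 above 0 and 10 below in KO against WT (median -0.035). Cd34, a sialomucin of endothelial and progenitor cells, differed by -0.19 (SE 0.11) and Gpihbp1, which holds lipoprotein lipase on capillaries, by -0.21 (SE 0.14). In HET against WT, 12 of 13 were below 0 with a median of -0.20, against 52.3 percent of all genes below 0, and 2 of 13 had an unadjusted p under 0.05, against 9.77 percent of all genes. The list mean was 0.087 in HET 5, -0.37 in HET 6 and -0.29 in HET 7, the arrays with the lowest and the highest meiotic mean among HET being the low ones. In KO the list mean was 0.088 and 0.076 in KO 1 and KO 2 and -0.17 and -0.15 in KO 3 and KO 4, the order seen in the endothelial genes themselves.

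**Figure D4:**
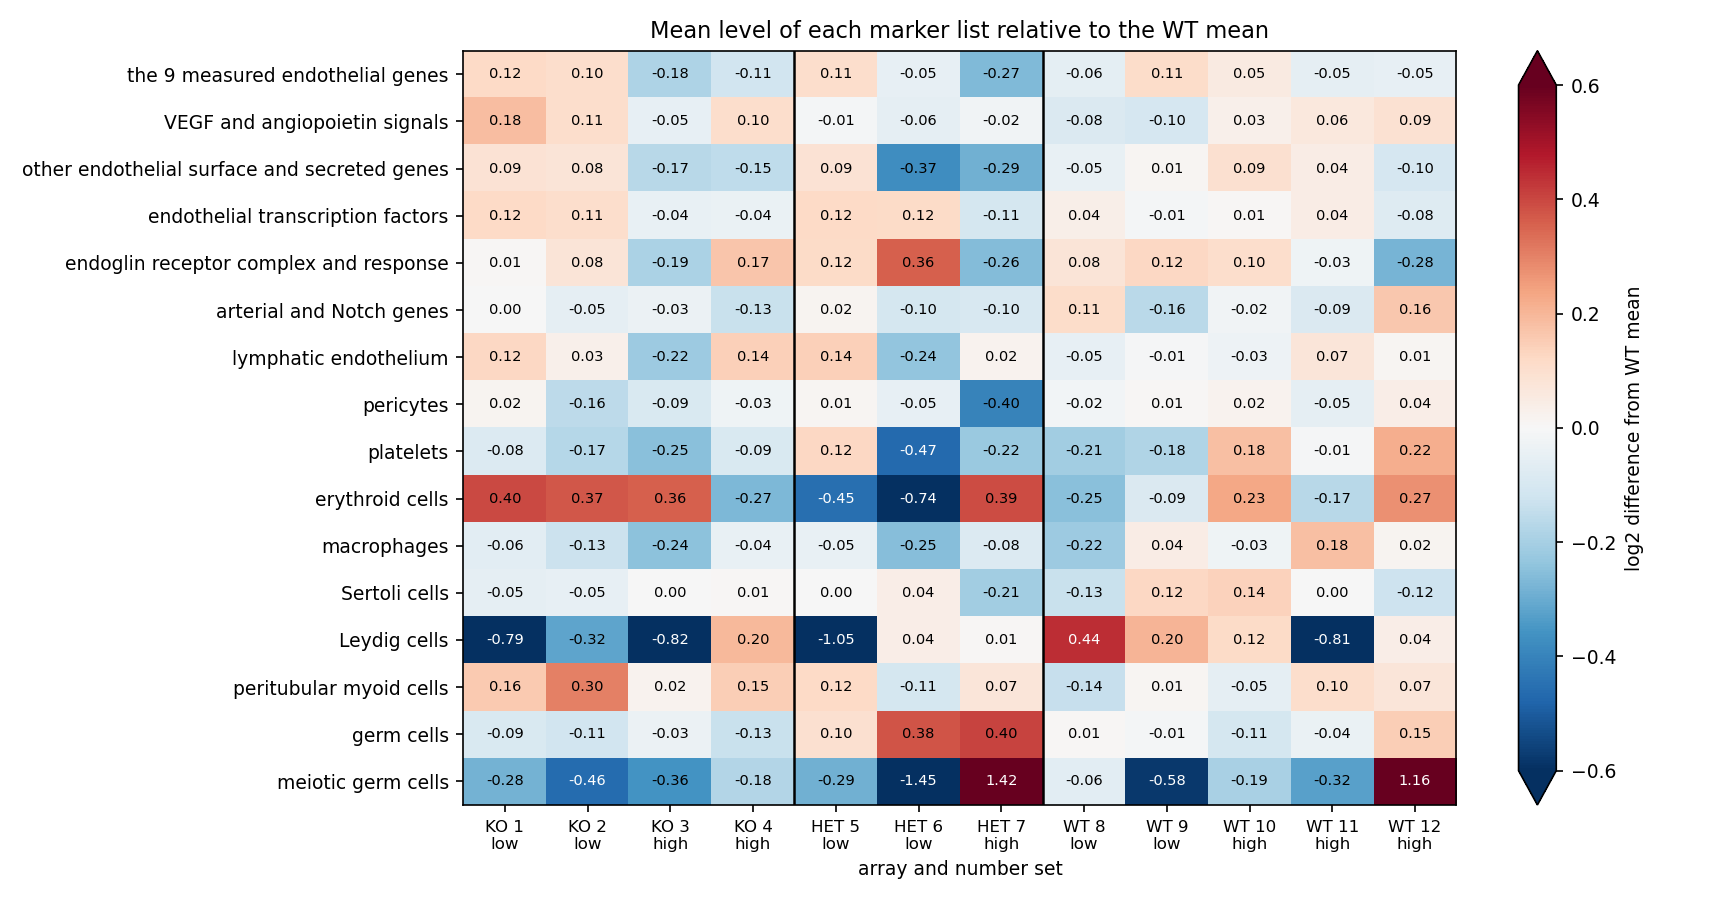
Mean level of the measured genes of each marker list on each array, relative to the WT mean (log2, colour and printed value, colour capped at 0.6), with arrays grouped as KO, HET and WT. The endothelial genes and the wider set of endothelial surface and secreted genes are above 0 in KO 1, KO 2 and HET 5 and below 0 in KO 3, KO 4, HET 6 and HET 7.

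Endothelial transcription factors were measured for 13 of 16, with 8 above 0 and 5 below in KO against WT (median 0.045). Ets1 differed by 0.14 (SE 0.094) and Klf2, a factor induced by blood flow, by 0.25 (SE 0.17), while Erg, Fli1 and Tal1 were not measured. Arterial and Notch genes gave 7 of 10 measured, 3 above 0 and 4 below (median -0.057), with the gap junction gene Gja5 at -0.14 (SE 0.13) and the receptor Notch4 at -0.075 (SE 0.083). For lymphatic endothelium only Pdpn (0.092, SE 0.23), Reln (-0.058, SE 0.094) and Ccl21a were measured, and the defining genes Prox1 and Lyve1 were not.

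Cells around and inside vessels were looked at through their own markers. Pericyte genes were measured for 7 of 7, with 3 above 0 and 4 below in KO against WT (median -0.0087), and their mean ranged from -0.16 to 0.018 in KO, from -0.40 to 0.013 in HET and from -0.054 to 0.038 in WT. The lowest pericyte value was that of HET 7, which was also lowest for the endothelial genes. Kcnj8, a potassium channel subunit of pericytes, differed by -0.24 (SE 0.13) and the PDGF receptor gene Pdgfrb by -0.18 (SE 0.15) in KO against WT. Of 7 platelet genes 2 were measured, Itga2b (-0.15, SE 0.12) and Pf4 (-0.15, SE 0.17), the second on 5 arrays, and Ppbp, Gp1bb, Gp9 and Treml1 were not detected on enough arrays. Of 5 erythroid genes Hba-a1 (0.23, SE 0.24, a globin with a near-identical copy) and Alas2 (0.20, SE 0.22) were measured. Their mean ranged from -0.27 to 0.40 in KO, from -0.74 to 0.39 in HET and from -0.25 to 0.27 in WT, and KO 1, KO 2, KO 3 and HET 7 were the highest, of which KO 3 and HET 7 were low in the endothelial genes. Macrophage genes were measured for 7 of 9, with 1 above 0 and 6 below, and their mean ranged from -0.24 to -0.045 in KO, from -0.25 to -0.046 in HET and from -0.22 to 0.18 in WT, Aif1 differing by -0.27 (SE 0.12) and C1qb by -0.16 (SE 0.13). The part of these cells in the endothelial readings was not tested.

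Markers of the other testis cells were set beside these values as means per array. Sertoli cell genes, 7 of 8 measured, had 1 above 0 and 6 below in KO against WT (median -0.026), with a mean from -0.052 to 0.0057 in KO, from -0.21 to 0.041 in HET and from -0.13 to 0.14 in WT. HET 7 had the lowest Sertoli mean of the 12 arrays and also the lowest endothelial mean, and WT 9 and WT 10 were the highest WT arrays in both lists. Gata1, the gene above 0, differed by 0.17 (SE 0.13) and Rhox5 by -0.25 (SE 0.23) in KO against WT. Leydig cell genes, 4 of 6 measured, had 0 above 0 and 4 below, and their mean ranged from -0.82 to 0.20 in KO, from -1.05 to 0.041 in HET and from -0.81 to 0.44 in WT. KO 1, KO 3, HET 5 and WT 11 were the lowest in them. Star, detected on 7 of 12 arrays, differed by -0.71 (SE 0.37) and Insl3 by -0.20 (SE 0.14) in KO against WT. Peritubular myoid genes had 5 above 0 and 0 below, and their mean ranged from 0.020 to 0.30 in KO, from -0.11 to 0.12 in HET and from -0.14 to 0.10 in WT. Germ cell genes had 3 above 0 and 3 below, and their mean ranged from -0.13 to -0.035 in KO, from 0.098 to 0.41 in HET and from -0.11 to 0.15 in WT. Of the myoid genes Tagln differed by 0.30 (SE 0.14) and Actg2 by 0.29 (SE 0.16) in KO against WT. Among germ cell genes Kit differed by 0.17 (SE 0.10) and Piwil2 by -0.61 (SE 0.32), with Piwil2 lower in every KO array than in any WT array. Of the meiotic genes Spo11 differed by -0.33 (SE 0.35) and Ldhc by -0.78 (SE 1.0). In all 15 other lists together, 0 of 97 measured genes passed in any of the 3 comparisons.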

How the data were processed

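Total RNA of 12 whole testis samples was amplified, biotinylated and hybridised to Illumina MouseWG-6 v2 arrays, per the labels' protocols. The authors deposited unnormalized bead intensity (linear scale) and detection p-values for 45281 probes, per the file headers. They also deposited processed intensities, which equal a quantile normalization of the unnormalized ones to within 4.87e-08 percent and were used as an alternative only. No source used here names the scanner software.

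Here intensities were corrected by normexp on detection p-values and quantile normalized, then put on the log2 scale (offset 16) in limma 3.58.1 under R 4.3.3, with Python 3.11.15 and matplotlib 3.10.9. A probe had to be detected on 3 or more arrays (p under 0.05), which 20170 were, and the brightest detected probe stood for each of 11076 genes. Symbols came from the platform annotation (34885 probes with 1 symbol), of which 34807 matched RefSeq genes of GRCm38.p6 by Entrez identifier and 0 changed. Vegfd and 2 other list genes were found through older symbols. One limma fit (lmFit, eBayes) over 12 arrays gave 3 contrasts and an F-test, with Benjamini-Hochberg adjustment over all genes. The procedure was tested on simulated data. The groups share no replicate numbers. No pair of arrays held identical values, the highest correlation between arrays over genes being 0.995.

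The genes and lists were chosen with earlier results of these data known. The genes named are the 10 endothelial genes, the 2 measured genes of each other list with the smallest p in KO against WT, and the 6 genes most like the endothelial mean. Ccl21a and genes that were not measured are named in addition, to account for their lists. Alternatives were other normalizations, filters and probe rules, fits on the groups compared, a robust trend, array weights, number sets as a block, a meiotic covariate, and arrays left out.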

Additional observations from a re-analysis of the deposited data

Results flagged for a closer look

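In each group of 4 or 5 arrays the highest and the lowest reading were compared with the others, for the 45 genes named with measured values, and 10 of 90 groups held a reading far from the rest. Chance alone sets apart about 1 in 20 groups, and many of these genes vary together. Of the endothelial genes, Tie1 read 5.857 in WT 8, against 5.427 to 5.541 in the other WT arrays, and Emcn read 7.423 in KO 3, against 7.64 to 7.679 in the other KO arrays. KO 3 was also low for Tagln, a smooth muscle gene, with 6.725 against 7.069 to 7.114, and KO 4 was low for both erythroid genes, with 13.2 against 13.72 to 13.79 for Hba-a1 and 6.775 against 7.468 to 7.574 for Alas2. KO 2 was high for Actg2, with 9.509 against 9.006 to 9.076. In WT, Tgfb1 read 8.004 in WT 9 against 7.656 to 7.754, Gata1 read 7.233 in WT 11 against 7.698 to 7.833, Ms4a6d read 6.436 in WT 9 against 5.274 to 5.562, and Mgmt read 6.705 in WT 12 against 7.435 to 7.629. The causes were not tested.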

How the results depend on the processing

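Under 26 alternative settings, 12 of which left out 1 array, 0 of 678 recomputed differences of endothelial genes passed the threshold. Their smallest limma adjusted p was 0.165. For the genes taken from the other lists, recomputed in KO against WT only, 0 of 753 passed. The 6 genes most like the endothelial mean were not recomputed. Since no difference was called, 58 changes of sign among the endothelial differences and 7 among those of the list genes are changes about 0. Without WT 12, HET 6 and HET 7, which leaves HET 5 alone in its group with its spread assumed to be like the others', the median over the endothelial genes was 0.0922 in HET against WT and -0.143 in KO against HET. In that setting HET minus WT was 0.122 for Pecam1, 0.0788 for Flt1, 0.106 for Tie1, 0.0054 for Emcn, 0.0906 for Eng and 0.0922 for Esam. KO minus HET was -0.143 for Pecam1, -0.021 for Cdh5, -0.119 for Flt1, -0.0801 for Tie1 and -0.16 for Eng, and KO minus WT was -0.0794 for Pdpn. With number sets as a block HET minus WT was -0.0353 for Cdh5, -0.0245 for Tek and -0.00661 for Vwf, and KO minus HET was 0.003 for Esam. Testing each probe singly gave a second probe at -0.101 for Cdh5 in HET minus WT, -0.0209 for Pecam1 in KO minus HET, and 0.0145 for Gpihbp1, -0.0146 for Kit and 0.0419 for Smad5 in KO minus WT. The mean of both Cdh5 probes gave -0.0329 in HET minus WT. Array weights gave 0.00643 for Tek and -0.065 for Pdpn in KO minus WT, the meiotic covariate -0.0366 for Pdpn in KO minus WT and -0.0295 for Pecam1 in KO minus HET, and scaling to the same median 0.00556 for Esam in KO minus HET. Leaving out 1 array moved KO minus WT between -0.144 and 0.078 for Eng, -0.124 and 0.0685 for Flt1, -0.0654 and 0.0522 for Pecam1, -0.0869 and 0.0517 for Tek and -0.0794 and 0.184 for Pdpn. It moved HET minus WT between -0.052 and 0.19 for Cdh5, -0.209 and 0.243 for Pecam1, -0.0291 and 0.109 for Tek, -0.16 and 0.0678 for Tie1 and -0.0332 and 0.0411 for Vwf. It moved KO minus HET between -0.0427 and 0.0426 for Emcn, -0.0709 and 0.0899 for Esam, -0.245 and 0.207 for Pecam1, -0.114 and 0.00652 for Tek and -0.0108 and 0.217 for Tie1. Over all genes, where 0 passed in each comparison, leaving out HET 5 gave 173 in HET against WT, 62 in KO against HET and 9 in the F-test, and leaving out WT 12, HET 6 and HET 7 gave 2 in KO against WT and 1 in the F-test. The cause of these shifts was not tested beyond the array or setting named. No paired analysis was possible because the groups share no replicate numbers. Precision is limited by 3 to 5 arrays a group and, for Kdr, by signal not above background.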
